A study of Mus musculus with 18 samples.

Results

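Chromatin contacts across the mouse *HoxD* locus were compared between mesenchymal limb cell lines and pluripotent embryonic stem cells (ESCs). The comparison takes 8 of the 18 5C libraries of the series, 4 from limb cells and 4 from ESCs, and only the EcoRI fragments that both primer designs cover. A2 and P2 are immortalised lines from the anterior (A2) and posterior (P2) part of the distal forelimb bud of Immortomouse embryos at E10.5, with 2 libraries each. They were kept at 33°C in 10% serum with interferon at 20 ng/ml. OS25 and WTF18 are ESC lines, also with 2 libraries each, grown on feeder cells from E12.5 embryos. They were kept in 15% serum with LIF at 1000 units/ml and taken without an inducer of differentiation. The labels of the OS25 libraries also carry the text on retinoic acid treatment, and these libraries were taken as undifferentiated from their titles. Chromatin was crosslinked in 1% formaldehyde over 10 min in every case. Each class therefore rests on 2 lines, and the labels do not name the cultures behind the 2 libraries of a line, although the study calls its repeat data sets biological replicates. The p-values measure the spread between these libraries. A 5C matrix holds no expression values, and the labelled cell types could not be checked against marker genes.

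The *Hoxd* genes encode homeobox transcription factors with roles in axis and limb patterning, and they lie in a row from *Hoxd13* at the 5′ end to *Hoxd1* at the 3′ end, with the homeobox gene *Evx2* beyond *Hoxd13*. In ESCs the cluster is silent and carries Polycomb marks. In the limb the genes are switched on in overlapping domains by enhancers in the gene deserts on both sides. The 5′ side holds *Lnp*, which encodes a membrane protein of the endoplasmic reticulum, and the digit enhancers GCR and Prox. The 3′ side holds *Mtx2*, which encodes a protein of mitochondrial import, and enhancers used in the early limb bud. 5C counts ligation products between pairs of restriction fragments in fixed chromatin, each read by 1 forward and 1 reverse primer.

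The limb design covered 203 fragments, of which 131 were shared with the ESC design, which had 2 more. These span 666 kb of chromosome 2 (NCBIM37/mm9, 74241352 to 74907778), all with the same primer direction in both designs. They give 4290 forward–reverse pairs, 4126 of them at least 10 kb apart. Each library was rescaled so that these 4126 pairs sum to 1000 reads, and interaction frequencies are given as reads per 1000 on that scale. The cluster window, *HoxD* with *Evx2*, held 22 fragments (74483052 to 74604594) and 95 such pairs. The 5′ flank held 40 fragments and the 3′ flank 69.

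Libraries differed in depth and in how evenly the reads were spread. Runs held 478818 to 2096681 reads in limb libraries and 653441 to 909923 in ESC libraries. No read fell on 1.48% to 17.3% of the shared pairs in limb libraries, but on 42.7% to 59.4% in ESC libraries. The 42 pairs with the most reads took 6.51% to 10.7% of reads in limb libraries and 27.6% to 33.6% in ESC libraries. The other 10 libraries made with the ESC design had 23.7% to 63.2% empty pairs. All limb libraries used the extended primer design, so the cell class and the design cannot be told apart. The second P2 library stood apart from the other 3 limb libraries in 7 readouts of the 30 described here, and values without it are given where they matter. A frequency of 3 reads corresponds to 0.00334 to 0.0128 in limb libraries and 0.00536 to 0.00790 in ESC libraries, which covers counting error only because reads are PCR copies.

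The fragments on which the results turn are shown by 30 bases that end with the EcoRI site that closes the fragment, in capitals (mm9, + strand). Coordinates are those of the bases printed, and the gene named is the one the whole fragment overlaps. They are the *Evx2*, *Hoxd13*, *Hoxd11* and *Hoxd3* fragments with the most altered or the most frequent cluster contacts, followed by the 4 fragments that make up a pair of very frequent long-range contacts in ESCs.
mHoxD_67 (spans *Evx2*, chr2:74498285-74498314): aatgagtattttatttaacaaataGAATTC
mHoxD_70 (*Hoxd13*, chr2:74511662-74511691): gaggatgctccagtagaaaggagaGAATTC
mHoxD_75 (*Hoxd11*, chr2:74524291-74524320): ctcagaaagtgattattttgtttaGAATTC
mHoxD_89 (*Hoxd3*, chr2:74574580-74574609): ctcagcctggttccgttctaccggGAATTC
mHoxD_85 (*Hoxd3* and *Hoxd4*, chr2:74563641-74563670): gagggcccagaaaggtaaatgctcGAATTC
mHoxD_163 (3′ of *Mtx2*, chr2:74849790-74849819): cagaggaagacagctagcttcctaGAATTC
mHoxD_22 (5′ flank, beyond *Lnp*, chr2:74324055-74324084): aatatttgcagttctcggttggctGAATTC
mHoxD_82 (*Hoxd3*, chr2:74552543-74552572): tctactaatacgtatattttgccaGAATTC

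The first question was whether *HoxD* is less compact in limb cells than in ESCs by this measure. Contacts within *HoxD* and *Evx2* were less frequent in limb cells. The mean frequency over the 95 pairs was 0.747 and 0.753 in A2 libraries and 0.764 and 1.22 in P2 libraries, against 1.76 and 3.23 in OS25 libraries and 2.39 and 2.59 in WTF18 libraries. Every limb library lay below every ESC library. Means were 0.872 ± 0.235 in limb cells and 2.49 ± 0.607 in ESCs (SD, n = 4 each), a difference in log2(frequency + 0.02), limb minus ESC, of −1.49 (standard error 0.22, limma adjusted p = 0.000642). Across the 30 region readouts tested together, 8 (26.7%) were higher in limb cells and 9 (30%) lower. The exact two-sided permutation test of 4 against 4 libraries gave p = 0.0286, the smallest that its 70 labelings allow, and adjusted over the 30 readouts 0.0571. With forward and reverse primers scaled to equal means, which takes out some of any signal that adjoining fragments have in common, the difference was −0.68 (limma adjusted p = 4.76e-05).

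No shared fragment overlaps *Hoxd10*, and the cluster was divided at that gap. The lower contacts in limb cells involved both parts of the cluster and the contacts between them. Inside the 5′ section, *Evx2* to *Hoxd11*, the 7 pairs averaged 1.46 ± 0.357 in limb cells and 5.94 ± 2.63 in ESCs (SD, n = 4 each), a log2 difference of −1.94 (limma adjusted p = 0.000713). Inside the 3′ section, *Hoxd9* to *Hoxd1*, the 32 pairs averaged 0.954 ± 0.256 in limb cells and 2.00 ± 0.515 in ESCs (log2 difference −1.05, limma adjusted p = 0.00448). The 56 pairs joining the sections differed by −1.62 (limma adjusted p = 0.000540). With primers scaled to equal means the difference inside the 5′ section was −0.15 and no longer passed (limma adjusted p = 0.395), and that inside the 3′ section did not pass with pairs of all distances (−0.43) or with P2 alone (−0.88). The log2 ratio of contacts inside the sections to contacts between them, at matched distance, did not pass the test (limb minus ESC −0.14, 95% interval −0.48 to 0.20).

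**Figure D1:**
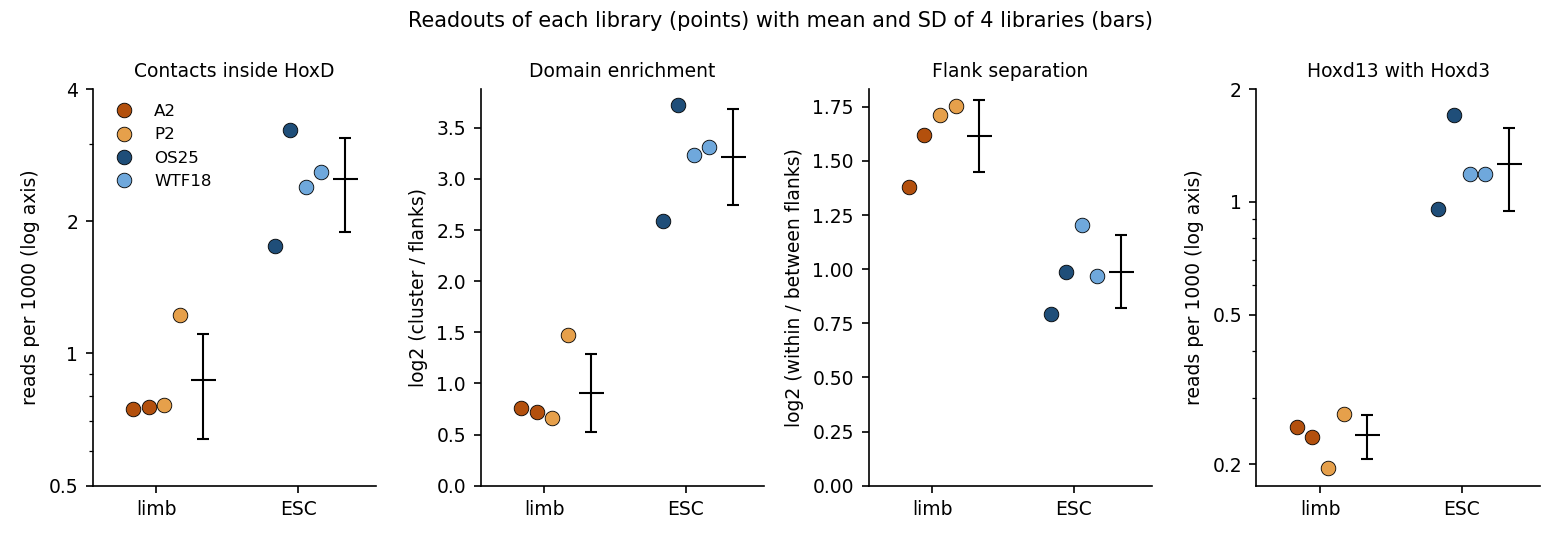
Values of single libraries (points) with the mean ± SD of a class (bars) for contacts inside *HoxD*–*Evx2* and of the Hoxd13 with the Hoxd3 window (reads per 1000, log axes), domain enrichment and flank separation (log2 ratios), limb libraries on the left. Limb and ESC libraries do not overlap in the cluster mean (0.747 to 1.22 against 1.76 to 3.23 reads per 1000) or in the domain enrichment (0.66 to 1.47 against 2.59 to 3.72), nor in the other panels.

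The difference between the cell classes was larger at each longer distance inside the cluster, a trend that is described and was not tested. At 10 to 20 kb the cluster averaged 1.74 in limb cells and 3.76 in ESCs, and the classes overlapped. At 20 to 40 kb it averaged 0.886 in limb cells and 2.35 in ESCs, and at 40 to 80 kb 0.653 in limb cells and 2.19 in ESCs, with no overlap. At 80 to 160 kb, which joins *Evx2* and *Hoxd13* to the *Hoxd3* and *Hoxd1* end, the mean over 10 pairs was 0.376 and 0.347 in A2 libraries and 0.303 and 0.435 in P2 libraries, against 1.64 and 3.05 in OS25 libraries and 2.33 and 1.84 in WTF18 libraries. The log2 differences were −1.13, −1.37, −1.71 and −2.51 in order of distance, and all 4 passed the test (limma adjusted p = 0.00359, 0.000585, 2.57e-05 and 2.97e-06). In ESCs the level at 80 to 160 kb was thus close to that at 40 to 80 kb, whereas in limb cells it was lower in each of the 4 libraries. Over the 27 combinations of region and distance tested, 12 were higher in limb cells (44.4%) and 4 lower (14.8%), 59.3% in all, and the 4 lower ones were those of the cluster. The count of higher ones depended on the scaling, with 0 higher and 13 lower on the authors' own scale of reads per 1000 of the whole run and 2 higher and 13 lower when the 1% most frequent pairs were left out of the scaling.

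**Figure D2:**
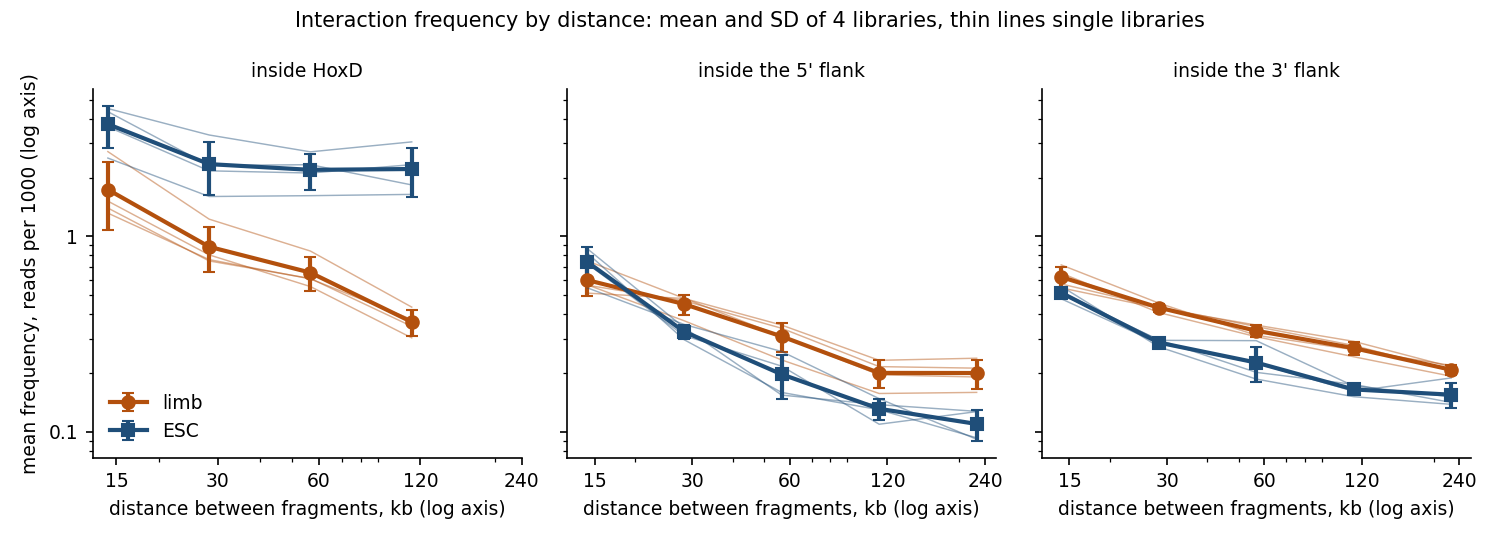
Mean interaction frequency (reads per 1000, log axis) against genomic distance (kb, log axis) inside *HoxD*–*Evx2* and inside each flank, limb and ESC in separate colours; thick lines and bars are the mean ± SD of 4 libraries, thin lines single libraries. In the cluster the ESC means are 2.19 at 40 to 80 kb and 2.21 at 80 to 160 kb, against 0.653 and 0.365 in limb cells.

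Compared with flank pairs of the same length in the same library, *HoxD* was enriched in contacts in both cell classes, and less so in limb cells. This domain enrichment compares, as a log2 ratio, cluster pairs with flank pairs and averages over 5 distance classes, so that it does not depend on how libraries are scaled. It was 0.76 and 0.72 in A2 libraries and 0.66 and 1.47 in P2 libraries, against 2.59 and 3.72 in OS25 libraries and 3.23 and 3.31 in WTF18 libraries. The classes did not overlap, and the limb minus ESC difference was −2.31 (standard error 0.26, 95% interval −2.92 to −1.71, limma adjusted p = 0.000187). They did not overlap in any of the 5 distance classes either. At 10 to 20 kb the enrichment was 1.44 ± 0.505 in limb cells and 2.66 ± 0.284 in ESCs, and at 80 to 110 kb it was 0.52 ± 0.370 in limb cells and 3.63 ± 0.479 in ESCs (SD, n = 4 each). The limma call held in all 32 alternatives, with differences of −2.59 to −0.77. The value nearest to 0 came with primers scaled to equal means, and without the second P2 library the difference was −2.50.

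Contacts between the ends of the cluster showed the same contrast in windows placed where the study had its probes for FISH, the imaging of loci in single nuclei. The Hoxd13 and Hoxd3 windows, 24 fragment pairs, had mean frequencies of 0.251 and 0.237 in A2 libraries and 0.195 and 0.272 in P2 libraries, against 0.957 and 1.71 in OS25 libraries and 1.19 and 1.19 in WTF18 libraries. Each limb library was thus below 0.3 and each ESC library above 0.9. On the scale of log2(frequency + 0.02) the mean was 4.87-fold higher in ESCs (limb minus ESC −2.28, standard error 0.18, limma adjusted p = 2.43e-05). All 32 alternatives with limma kept the call, and with primers scaled to equal means the difference was −0.85.

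Among single pairs of the cluster, the most frequent one by class mean was not the same in the 2 cell classes. In limb cells it joined mHoxD_79, between *Hoxd9* and *Hoxd8*, to mHoxD_82 at *Hoxd3*, 10.1 kb apart, with 4.74 ± 2.16 in limb cells and 4.32 ± 1.44 in ESCs (SD, n = 4 each). This pair showed overlapping values. In ESCs it joined the *Evx2* fragment mHoxD_67 to the *Hoxd13* fragment mHoxD_70, 17.9 kb apart. That contact had 1.59 and 2.35 reads per 1000 in A2 libraries and 1.65 and 3.43 in P2 libraries, against 8.53 and 21.4 in OS25 libraries and 13.7 and 9.81 in WTF18 libraries. Both pairs were chosen by their level in one class and are given with no test.

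Each shared fragment was then scored by its mean contact with cluster fragments. Of 131 fragments, 35 were higher in limb cells (26.7%) and 23 lower (17.6%), 44.3% in all. Of the 22 fragments in *HoxD*–*Evx2*, 0 were higher and 17 lower, and all 17 stayed lower under the authors' scaling, without the 1% most frequent pairs in the scaling, with capped values and without the long-range pairs described further on. Fragment scores were not recomputed with primers scaled to equal means, the setting that weakened other cluster results most. Fragments of the cluster had a median log2 difference of −1.26, against 0.31 for all fragments. The largest fall in the cluster was at *Evx2*. Fragment mHoxD_67 had 0.579 and 0.661 in A2 libraries and 0.539 and 0.846 in P2 libraries, against 4.59 and 8.98 in OS25 libraries and 5.69 and 5.63 in WTF18 libraries (log2 difference −3.18, limma adjusted p = 1.10e-06). All 4 limb values were below 1 and all 4 ESC values above 4.

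At the other end of the cluster, fragments at *Hoxd3* fell as well. mHoxD_89 had 0.561 and 0.352 in A2 libraries and 0.377 and 0.513 in P2 libraries, against 2.15 and 2.90 in OS25 libraries and 2.79 and 3.98 in WTF18 libraries (log2 difference −2.65, limma adjusted p = 4.53e-06). mHoxD_92, at the 3′ end of *Hoxd3*, differed by −2.31 (limma adjusted p = 6.32e-05). The *Hoxd13* fragment mHoxD_70 (1.33 ± 0.530 in limb cells, 4.21 ± 1.82 in ESCs) and the *Hoxd11* fragment mHoxD_75 (1.88 ± 0.495 in limb cells, 6.42 ± 2.26 in ESCs, SD, n = 4 each) fell by 1.64 and 1.73 on the log2 scale (limma adjusted p = 0.00148 and 0.000423). The 5 cluster fragments that did not pass were mHoxD_71 and mHoxD_74 at *Hoxd12*, mHoxD_78 at *Hoxd9*, mHoxD_82 at *Hoxd3* and mHoxD_93 between *Hoxd3* and *Hoxd1*, with log2 differences of −0.65 to 0.01.

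Outside the cluster, 29 of 69 fragments of the 3′ flank had higher contacts with *HoxD* in limb cells and 3 lower, and in the 5′ flank 6 of 40 were higher and 3 lower. Under the 4 alternatives just named, 8 of the 29 and 1 of the 6 stayed higher. The largest rise was at mHoxD_152 in the desert 3′ of *Mtx2*, 296 kb from the start of *Hoxd13*, with 0.280 and 0.595 in A2 libraries and 0.467 and 0.861 in P2 libraries, against 0.0611 and 0.146 in OS25 libraries and 0.126 and 0.135 in WTF18 libraries (log2 difference 2.00, limma adjusted p = 0.000423). The classes did not overlap. The next were mHoxD_165 (1.71) and mHoxD_142 (1.68) in the same desert, mHoxD_19 (1.35) in the 5′ flank and mHoxD_115 (1.34) between *Hoxd1* and *Mtx2*, and each of these 5 passed under the 4 alternatives.

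**Figure D3:**
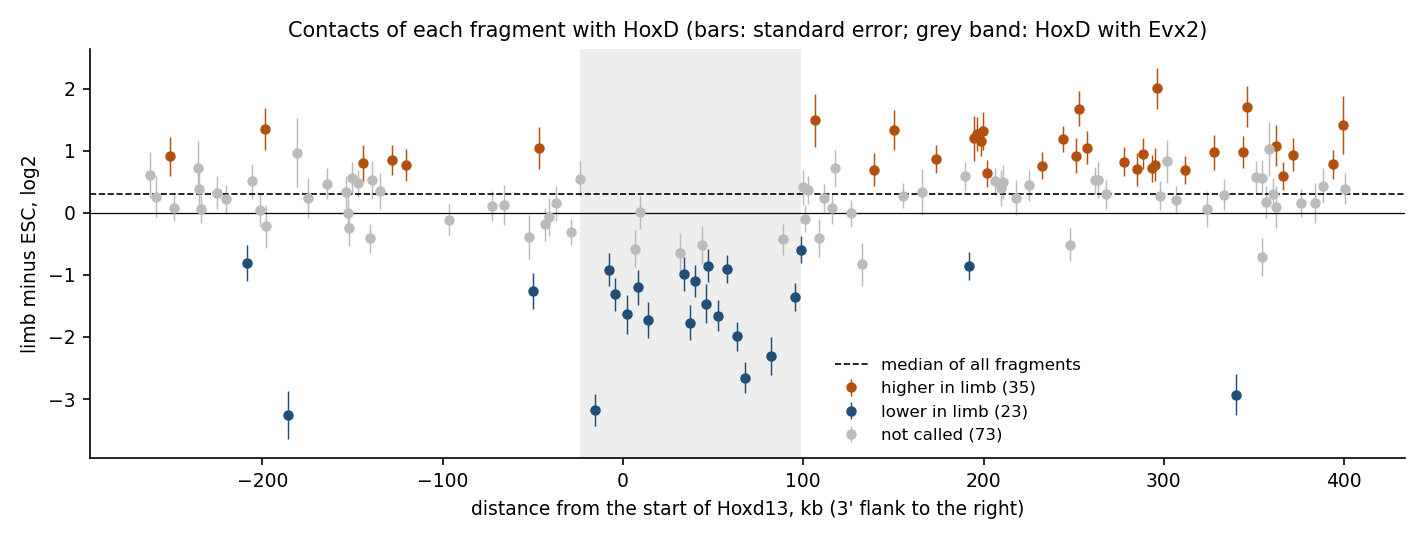
Log2 difference, limb minus ESC, in the mean contact of each of the 131 fragments with *HoxD*–*Evx2*, against distance from the start of *Hoxd13* (kb); bars are standard errors and the grey band is *HoxD* with *Evx2*. Of the 22 fragments in the band 17 are lower in limb cells, and most higher ones (29 of 35) lie in the 3′ flank.

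A pair of long-range contacts in ESCs stood out, and were picked after their values had been seen. mHoxD_85 at *Hoxd3* and *Hoxd4* with mHoxD_163, 287 kb away in the desert 3′ of *Mtx2*, was the most frequent of all pairs by the mean of either class. It had 3.47 and 10.2 in A2 libraries and 2.79 and 5.55 in P2 libraries, against 111 and 36.2 in OS25 libraries and 69.6 and 62.5 in WTF18 libraries. In limb cells its rank rested on the second A2 library, without which it averaged 3.94, against 4.85 for mHoxD_79 with mHoxD_82. mHoxD_22, beyond *Lnp* in the 5′ flank, with mHoxD_82 at *Hoxd3*, 230 kb away, had 0.262 and 0.370 in A2 libraries and 0.289 and 0.311 in P2 libraries, against 17.7 and 8.26 in OS25 libraries and 15.9 and 55.0 in WTF18 libraries. The fall of their flank fragments was not seen without them. The contact of mHoxD_22 with the cluster differed by −3.26, and by −0.08 without the pairs (limma adjusted p = 0.851). That of mHoxD_163 differed by −2.93, and by 0.12 without them (limma adjusted p = 0.681). Values of both long-range contacts in the other libraries of the ESC design are not given here. The most frequent pair of each of those libraries, not identified, had 18.8 to 109, with 109 and 49.7 in differentiated OS25 cells. In limb libraries the most frequent pair had 3.47 to 10.2. Whether the long-range contacts follow the primer design or the cell class was not tested.

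The next question was on which side of the cluster each gene has its contacts. For each gene group the log2 ratio of contacts with the 3′ flank to contacts with the 5′ flank was taken at matched distances of 100 to 250 kb, so that a positive value means more contacts on the *Mtx2* side. The ratio of *Hoxd4* and *Hoxd3* was higher in limb cells. It was 1.56 and 1.30 in A2 libraries and 1.79 and 1.63 in P2 libraries, against 0.07 and 0.19 in OS25 libraries and 0.17 and −0.13 in WTF18 libraries. All limb libraries lay above all ESC libraries, with a difference of 1.50 (standard error 0.13, limma adjusted p = 2.43e-05). Mean contacts of the whole 3′ section with the 3′ flank differed by 0.07 and did not pass (limma adjusted p = 0.726), and those with the 5′ flank were lower (−0.55, limma adjusted p = 0.0223). These parts changed places without the pair of long-range contacts described above. Contacts with the 3′ flank were then higher in limb cells (0.47, limma adjusted p = 0.00313). Those with the 5′ flank did not pass (−0.025, limma adjusted p = 0.830). The ratio includes the contact of mHoxD_22 with mHoxD_82. Without the pair of long-range contacts the limb values were 1.58, 1.33, 1.81 and 1.65 and the ESC values 0.74, 0.63, 0.78 and 1.11, still with no overlap and with a difference of 0.78 (limma adjusted p = 0.00218). It was 0.73 when only distances of 100 to 150 kb were used.

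*Hoxd13* and *Hoxd12* differed the other way. Their ratio was −0.27 and −0.12 in A2 libraries and −0.58 and −0.59 in P2 libraries, against 0.10 and 0.33 in OS25 libraries and 0.51 and 0.03 in WTF18 libraries. It was thus below 0 in every limb library and above 0 in every ESC library, with a difference of −0.63 (standard error 0.15, limma adjusted p = 0.00739). With A2 libraries alone against ESCs it was −0.44 and did not pass (limma adjusted p = 0.0858). The ratios of the other 4 groups did not pass the test. *Evx2* differed by −0.48, the single fragment of *Hoxd11* by −0.02, *Hoxd9* and *Hoxd8* by 0.43 (0.58 and called without the second WTF18 library) and *Hoxd1* by 0.06. The interval for *Hoxd1* (−0.90 to 1.03) is wide because its ESC values ran from 0.38 to 2.44, against 1.48 to 1.66 in limb libraries.

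Along the cluster the sign of the ratio turned once in each limb library. *Evx2* and *Hoxd13*–*Hoxd12* were below 0 and *Hoxd9*–*Hoxd8*, *Hoxd4*–*Hoxd3* and *Hoxd1* above 1 in all 4, while the *Hoxd11* fragment between them was at −0.27, −0.27, −0.09 and 0.06. In ESC libraries 4 or 5 of the 6 groups were above 0. The first OS25 library also turned once, between *Evx2* and *Hoxd13*–*Hoxd12*, and in the other 3 the sign changed more than once. In the second WTF18 library this rested on the pair of long-range contacts. Without them its ratios were above 0 in all 6 groups (0.03 to 1.14). Positions of the turn are described and not tested.

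**Figure D4:**
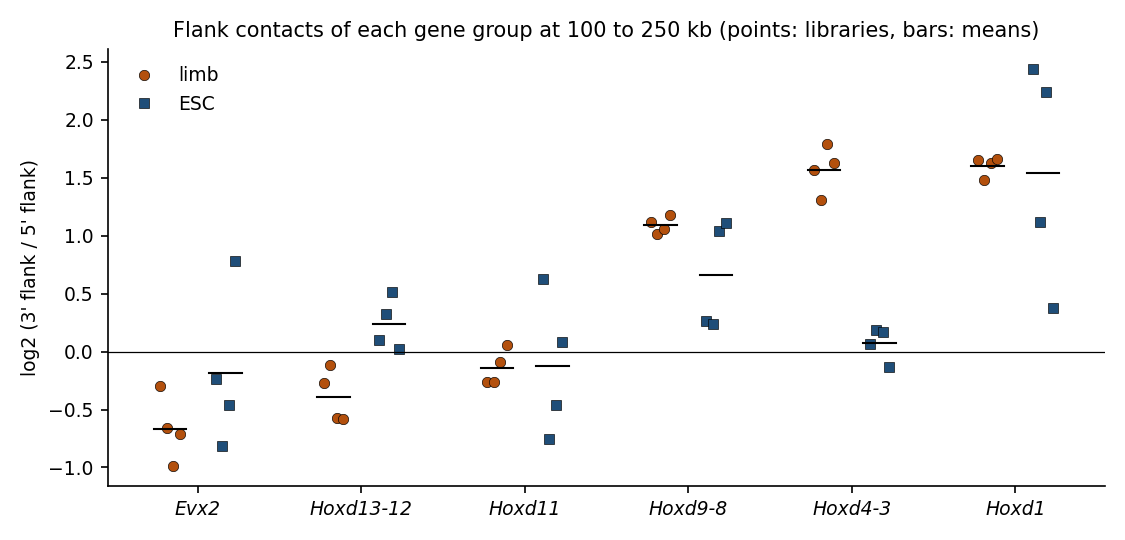
Log2 ratio of contacts with the 3′ flank to contacts with the 5′ flank (y axis) for 6 gene groups in order along the cluster (x axis), limb libraries left of ESC libraries in each group, one point per library. Limb values pass from below 0 at *Evx2* and *Hoxd13*–*Hoxd12* to above 1 from *Hoxd9*–*Hoxd8* onwards, and ESC values at *Hoxd4*–*Hoxd3* stay between −0.13 and 0.19. Without the pair of long-range contacts these ESC values are 0.63 to 1.11 (not drawn).

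Relative to contacts inside them, the flanks were more separated from each other in limb cells. Over all distances, contacts joining the flanks were themselves not lower in limb cells, at a mean of 0.0843 against 0.0628 in ESCs. That level depended on the scaling, as described further on. The log2 ratio of contacts inside a flank to contacts joining the flanks, at matched distances of 120 to 250 kb, was 1.38 and 1.62 in A2 libraries and 1.71 and 1.75 in P2 libraries, against 0.80 and 0.99 in OS25 libraries and 1.20 and 0.97 in WTF18 libraries. The ratio was above 0 in all 8 libraries, and all limb values exceeded all ESC values. The difference was 0.63 (standard error 0.12, 95% interval 0.35 to 0.90, limma adjusted p = 0.00243). By distance, the classes were apart at 120 to 160 kb, with 2.03 ± 0.176 in limb cells and 0.90 ± 0.219 in ESCs (SD, n = 4 each), and overlapped at 160 to 200 and at 200 to 250 kb. With primers scaled to equal means the difference was 0.45 and did not pass (limma adjusted p = 0.0536).

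A domain boundary was also sought along the locus. Insulation was taken as the log2 ratio of contacts that cross a position to contacts that stay on one side of it, within 150 kb and at matched distance, so that a low value marks a boundary. Limb libraries lay below all ESC libraries at 9 of 47 positions (19.1%), all of them among the 12 positions inside the cluster, and above all ESC libraries at 16 (34%), of which 74591352, between *Hoxd3* and *Hoxd1*, was the one inside the cluster. At the *Hoxd11* position (74521352) insulation was −0.49 and −0.51 in A2 libraries and −0.59 and −0.35 in P2 libraries, against 0.77 and 0.94 in OS25 libraries and 0.56 and 0.69 in WTF18 libraries. Within 150 kb, with contacts of the flanks included, contacts across *Hoxd11* were thus less frequent than contacts on one side in limb cells. In ESCs they were more frequent. Positions beside the cluster showed the opposite, and at 74471352, between *Lnp* and *Evx2*, insulation was −0.28 to −0.19 in limb libraries and −1.22 to −0.68 in ESC libraries. Inside the cluster alone, the 2 sections described above divide at the same gap as the *Hoxd11* position. The log2 ratio of contacts inside the sections to contacts between them was −0.76 to −0.21 in limb libraries. It was −0.52 to −0.04 in ESC libraries. At matched distance inside the cluster, contacts across this gap were thus not less frequent in either class.

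The lowest point of the profile lay at *Hoxd11* or at *Hoxd10* to *Hoxd9* in 3 of 4 limb libraries, at 74531352, 74521352 and 74521352, and in the second P2 library at *Lnp* (74361352, −0.53). Within the cluster its lowest point was also at *Hoxd11*. No shared fragment has its midpoint between 74521352 and 74531352, so these positions split the fragments alike. The data therefore do not tell a lowest point at *Hoxd11* from one at *Hoxd10* to *Hoxd9*. In ESC libraries the lowest point was in 0 of 4 inside the cluster, and was found at 74461352, 74641352, 74681352 and 74471352, on either side of it. The position depended on the window and the scaling. With contacts within 100 kb all 4 limb libraries had the lowest value at 74471352 and all 4 ESC libraries at 74481352, both just 5′ of *Evx2*. With contacts within 200 kb 2 of 4 limb libraries had it inside the cluster (74531352) and the others at 74361352 and 74341352. With primers scaled to equal means all 4 limb libraries had it inside the cluster, and so did 1 ESC library, the first from OS25 (74591352). With extreme values capped, all 4 limb libraries had it inside the cluster.

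**Figure D5:**
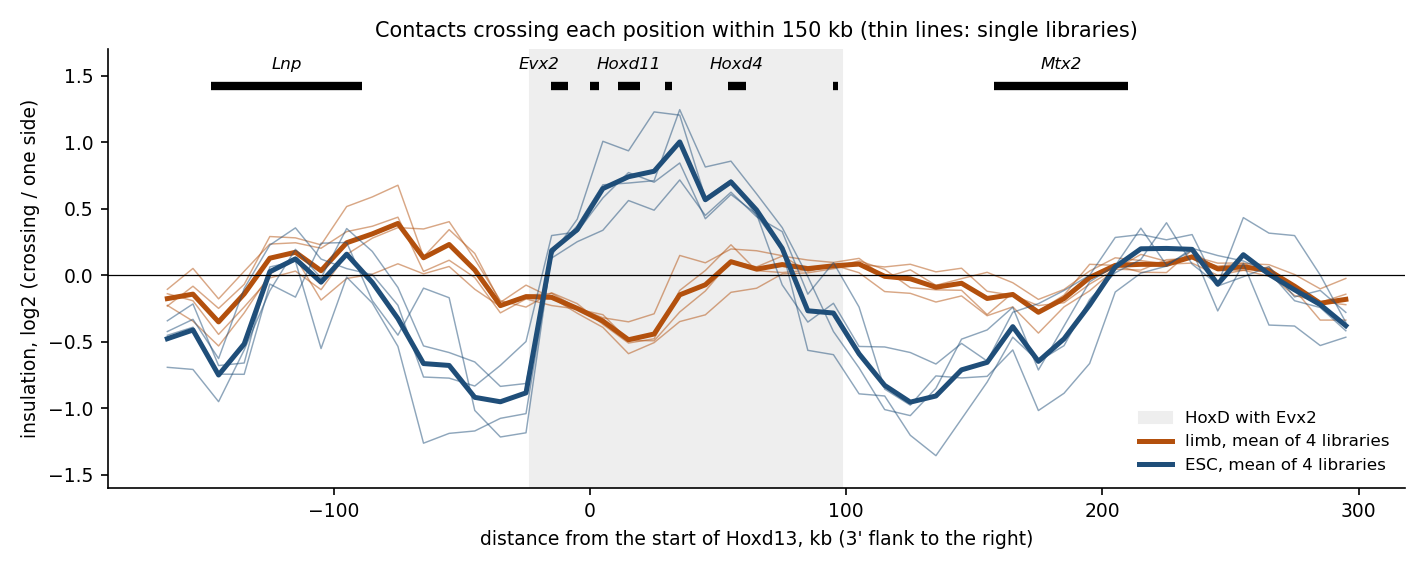
Insulation (log2 ratio of crossing contacts to contacts on one side, within 150 kb) against distance from the start of *Hoxd13* (kb), limb and ESC in separate colours; thick lines are means of 4 libraries and thin lines single libraries. Limb lines dip to between −0.35 and −0.59 at *Hoxd11*, where ESC lines are at 0.56 to 0.94, and ESC lines dip on either side of the cluster.

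Single contacts were mapped in 20-kb bin pairs. Of 579 bin pairs tested, 70 were higher in limb cells (12.1%) and 24 lower (4.15%). All 24 were without overlap between the classes, as were 31 bin pairs below ESC in total (5.35%). The lower ones were concentrated in the cluster, where 12 of 17 bin pairs were lower and 0 higher (median log2 difference −1.72, against 0.60 over all bin pairs). All 24 lower bin pairs also passed on the authors' scale, without the 1% most frequent pairs in the scaling and with each library centred on its median, where 12, 14 and 12 of the 70 higher ones did. With capped values 22 of the 24 passed, and with primers scaled to equal means 8 did. The median of all bin pairs differed by 0.60 here and by 0.13 after that centring, so most of the higher calls depend on the scaling.

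The bin pairs that fell most inside the cluster joined *Evx2* to its other end. *Evx2* (74481352 to 74501351) with *Hoxd4* and *Hoxd3* (74561352 to 74581351), bin pair 12_16 in 20-kb steps from the first fragment, had 0.245 and 0.219 in A2 libraries and 0.174 and 0.320 in P2 libraries, against 1.15 and 1.94 in OS25 libraries and 2.43 and 2.01 in WTF18 libraries (log2 difference −2.86, limma adjusted p = 0.000744). With *Hoxd3* and *Hoxd1*, one bin further (12_17), the difference was −2.42 (limma adjusted p = 0.00358). With primers scaled to equal means both were at −1.17 and did not pass (limma adjusted p = 0.0655 and 0.118). The 5 bin pairs of the cluster that did not pass ran between neighbours in its middle, among them *Hoxd11*–*Hoxd9* with *Hoxd8*–*Hoxd4* (14_15), at 2.45 in limb cells and 2.51 in ESCs. Outside the cluster, a pair of fragments inside *Lnp* (6_6) fell by 2.78 on the log2 scale, with at most 0.0423 in limb libraries and at least 0.132 in ESC libraries. The other falls named by the rule, 3_15 and 15_30, hold the long-range contacts of mHoxD_22 and mHoxD_163, and without these differed by −0.39 and 0.76.

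The 3 largest rises, all contacts of the same *Lnp* fragment, mHoxD_41, started from ESC values at or near 0. They are thus not separate from each other. The total of this fragment was 16.3 in limb cells and 7.48 in ESCs. The 5′ desert (74321352 to 74341351) with *Lnp* (74381352 to 74401351), bin pair 4_7, had 0.291 and 0.402 in A2 libraries and 0.451 and 0.104 in P2 libraries and no read in any ESC library. The difference passed the test (limma adjusted p = 0.000744). The limb mean was 48.3-fold the frequency of 3 reads in ESC libraries, which covers counting error only and so sets no lower bound on the rise. The same *Lnp* bin with 74641352 to 74661351, between *Hoxd1* and *Mtx2* (7_20), also had no read in any ESC library. Its limb mean was 25.5-fold that frequency (limma adjusted p = 0.000505). With *Hoxd11* to *Hoxd9* (7_14) the *Lnp* bin had 0.189 and 0.137 in A2 libraries and 0.319 and 0.307 in P2 libraries, against 0.0465 and 0 in OS25 libraries and 0 in both WTF18 libraries (limma adjusted p = 0.00284, and 0.0897 with primers scaled to equal means). The other rises named by the rule were not all from ESC values near 0. They were 14_20, *Hoxd11*–*Hoxd9* with the same bin between *Hoxd1* and *Mtx2* (2.79, limma adjusted p = 0.0385, with 0.145 and 0.190 in OS25 libraries), and 9_27, between the deserts (2.77, limma adjusted p = 0.0101). The call of 14_20 was lost under each of 5 other scalings (1.80 to 2.66, limma adjusted p = 0.0651 to 0.178), without the long-range pairs (2.72, limma adjusted p = 0.0542), without any 1 limb library and without the second WTF18 library (2.46 to 3.00). Each of the 3 with *Lnp* rests on a single pair of fragments, in libraries where 42.7% to 59.4% of pairs were empty in ESCs, and the part of this sparsity in the rises was not tested.

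Contacts in the flanks depended more on the scaling than those of the cluster. Between the Mtx2P and 3′Mtx2 windows the mean was 0.427 and 0.412 in A2 libraries and 0.420 and 0.395 in P2 libraries, against 0.209 and 0.122 in OS25 libraries and 0.196 and 0.219 in WTF18 libraries. The classes did not overlap (log2 difference 1.10, standard error 0.16, limma adjusted p = 0.000642), and 31 of 32 alternatives kept the call. The exception was the scaling of primers, with 0.24 (limma adjusted p = 0.138). Between the GCR and *Lnp* and between the GCR and *Hoxd13*, contacts of the digit enhancer, the difference was 0.46 in both cases (limma adjusted p = 0.00531 and 0.0223), called in 27 and 20 of 32 alternatives. The second call was lost without the second A2 library (0.45) and without either P2 library (0.42 and 0.44). Contacts of Prox, the nearer digit enhancer, with the Hoxd10 probe window, whose shared fragments run from *Hoxd12* to *Hoxd3* and leave out *Hoxd10* itself, differed by −0.32 (limma adjusted p = 0.0317, 22 of 32 alternatives), a call lost without any library but the second from A2 or WTF18 (−0.33 to −0.24), and those of *Hoxd3* with Mtx2P did not pass (−0.29, 95% interval −0.86 to 0.28).

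Mean contacts inside the 5′ flank (log2 difference 0.38), inside the 3′ flank (0.50) and between the flanks (0.33) passed as higher in limb cells (limma adjusted p = 0.0144, 0.000849 and 0.0286) and kept the call in 22, 28 and 17 of 32 alternatives. The first call was lost without the first P2 library (0.34), and that between the flanks without 6 of the 8 libraries in turn (0.28 to 0.35). On the authors' scale the 5′ flank was at −0.043 and contacts between the flanks at −0.023. Since all libraries sum to the same total, more reads in the cluster leave fewer for the flanks. Contacts of the 3′ section of the cluster with the 5′ flank were called as lower in limb cells (−0.55, not called without the first P2 library, −0.51). They were at −0.025 without the pair of long-range contacts described above, which were left out together. The slope of log2 frequency on log2 distance was −0.51 ± 0.037 in limb cells and −0.66 ± 0.086 in ESCs (SD, n = 4 each), a difference of 0.15 that did not pass (limma adjusted p = 0.129). Without cluster pairs it was −0.45 ± 0.021 in limb cells and −0.46 ± 0.044 in ESCs.

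Limb libraries were more alike among themselves than any was like an ESC library. For ESC libraries the answer depended on the measure. Over the 579 bin pairs, with the trend with distance removed, Spearman's rho was 0.736 to 0.856 between limb libraries and 0.464 to 0.548 between ESC libraries. It was 0.383 to 0.477 between a limb and an ESC library, a range that overlapped that of ESC libraries. Pearson's correlations of the same values did not overlap, at 0.488 to 0.609 between ESC libraries and 0.379 to 0.480 between classes. Spearman's rho of totals per fragment was 0.901 to 0.951 between limb libraries, 0.890 to 0.915 between ESC libraries and 0.704 to 0.823 between classes. Bin pairs share fragments and primers, so these values are a description. Totals per fragment were higher for longer fragments in both classes (Spearman's rho over 131 fragments 0.616 in limb cells and 0.579 in ESCs), and the limb minus ESC difference of these totals had a rho of −0.15 with length and −0.18 with the GC content of the last 30 bases.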

How the data were processed

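The deposited matrices hold signal values, 1 per pair of fragments: the authors processed Ion Torrent reads with a 5C pipeline run on Galaxy and expressed each contact per 1000 reads of its run, the aligner being not given in the sources used here. Positions follow mm9. Run totals were recovered from the step between values, and the values stayed a signal, tested with limma and not with a count model. No library copied another (chi-square per degree of freedom between libraries of a line 21.3 to 118). Of 131 shared fragments 130 start and 131 end at an EcoRI site.

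Libraries were rescaled to 1000 reads over shared pairs at least 10 kb apart, means over pairs (zeros included) were taken as log2 after adding 0.02, and limb was compared with ESC in limma 3.58.1 (R 4.3.3), two-sided, with Benjamini-Hochberg adjustment at 0.05 within each family (30 region readouts, 27 region and distance classes, 579 bin pairs and 131 fragments with a mean above 0.02). Readouts share pairs and are not independent. The exact permutation test over 2 against 2 whole lines cannot go below p = 0.333. The windows, a fragment being placed by its midpoint, were read by eye from the map of the study, and genes were taken from the mm9 annotation. Items named are all windows, and up to 5 bin pairs and 5 fragments each way with the largest change among those that passed with no overlap of classes, plus the most frequent cluster pair of each class. Members, windows and lists were chosen with earlier results of these data known.

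Replicate numbers follow accession order and pair nothing. Alternatives covered scaling, pseudocount, minimum distance, extreme and empty pairs, primers, depth, windows, bins, the test and the samples. The procedure was run on simulated data, in which 1 of 10 bin pairs changed by 1 on the log2 scale was called. At a change of 2 it was 7 of 10, and at 3 and 4 all 10. Of 540 unchanged bin pairs 6 were called. Both classes were simulated from the same mean profile and spread, so their difference in empty pairs was not reproduced. Sequences come from the mm9 genome. Python 3.11.15, numpy 2.4.6, pandas 2.3.3, scipy 1.17.1 and matplotlib 3.10.9 were used. Fragments of 1 design only (72 limb, 2 ESC) were not compared.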

Additional observations from a re-analysis of the deposited data

Results flagged for a closer look

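Within the 4 libraries of each class, values of 60 groups were checked for a library far from the other 3, by Dixon's criterion at 95%. Chance gives about 1 in 20 such groups, and 9 were found, all among limb libraries. In 7 of them the library was the second from P2. It was the highest in contacts inside the cluster (log2 0.32, against −0.38 to −0.35 in the other 3), inside the 3′ section of the cluster, *Hoxd9* to *Hoxd1* (0.44), between its sections (0.12), between the cluster and the 3′ flank (−1.30) and in the domain enrichment (1.47, against 0.66 to 0.76). It was the lowest in contacts inside the 5′ flank (−1.95) and between the GCR and *Lnp* (−2.46). The first P2 library was the lowest in contacts of the 3′ section of the cluster with the 5′ flank (−2.86), and the second A2 library in the direction of *Hoxd1* contacts (1.48). The second P2 run was also the deepest, with 2096681 reads, and the part of depth in these values was not tested.

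Limb matrices hold reads outside the comparison. Contacts between fragments of the limb design alone took 13.4% and 16.0% of the reads of the A2 matrices and 13.0% and 13.9% of those of the P2 matrices.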

How the results depend on the processing

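Results were recomputed under each alternative, and a value was counted as reversed only where its sign changed and one of both fits passed the threshold. Of 1099 such recomputations 969 kept their call or stayed within the limits set, 76 lost and 22 gained a call, 22 counts or positions moved and 10 reversed. Of 480 that left out a library 449 kept it, 22 lost and 1 gained a call, 8 counts moved and 0 reversed. The cause was not tested unless stated. With the exact permutation test in place of limma, −1.49 (cluster), −2.31 (enrichment), 0.63 (flank separation), −0.63 and 1.50 (direction of *Hoxd13*–*Hoxd12* and *Hoxd4*–*Hoxd3*) and −2.28 (Hoxd13 with Hoxd3) had adjusted p = 0.0571, since 15 of the 30 readouts were at the smallest p of 0.0286. With primers scaled to equal means, the 3′ flank was at −0.048, contacts between the flanks at −0.074, flank separation at 0.45 and separation of the cluster sections at 0.25. On the authors' scale, the 5′ flank was at −0.043 and contacts between the flanks at −0.023. The 5′ flank was at −0.014 with no minimum distance. Contacts of the cluster with the 3′ flank were at −0.33 without the 1% most frequent pairs in the scaling. The direction of *Hoxd13*–*Hoxd12* was −0.44 with A2 alone. The slope with distance passed with capped values (0.16) and without the contacts of mHoxD_85 with mHoxD_163 and mHoxD_22 with mHoxD_82 (0.20). Leaving these out and capping were added, for some results, after the data had been seen, as was centring. Bin pair 15_30 was at 0.76 without them and 0.015 with capping, and mHoxD_163 at 0.12 without them.

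Bin pairs higher in limb cells numbered 12 on the authors' scale, 14 without the 1% most frequent pairs, 13 with scaled primers, 34 and 117 with pseudocounts of 0.005 and 0.1, 169 with the line as a random block, 32 without the pair of long-range contacts, 23 with capping and 12 after centring. Lower ones numbered 32, 28, 11, 20, 26, 30, 22, 27 and 33 in the same order, and 10 in 40-kb bins. On the authors' scale and after centring 27.3% and 26.7% of the bin pairs called were higher, against 74.5% as reported. Fragments higher in limb cells numbered 9 on the authors' scale, 9 without the 1% most frequent pairs and 16 with capping. Region and distance classes were 0 higher and 13 lower on the authors' scale, 2 and 13 without the 1% most frequent pairs, 6 and 8 with capping, and 4 higher with scaled primers. With contacts within 200 kb the median position of the lowest insulation in ESC libraries was 74381352. With the replicate block, in which the numbers pair nothing, 69 bin pairs were higher and 25 lower, the cluster differed by −1.49 and no region readout named here changed its call.

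Leaving out each library gave −1.66 to −1.36 for the cluster, −2.52 to −2.14 for the enrichment, 0.56 to 0.71 for flank separation, −0.22 to −0.03 for the cluster sections, −0.72 to −0.54 and 1.43 to 1.59 for the directions of *Hoxd13*–*Hoxd12* and *Hoxd4*–*Hoxd3*, 0.12 to 0.19 for the slope and −2.40 to −2.13 for Hoxd13 with Hoxd3. Bin pairs ran from 16 to 94 higher and 14 to 29 lower, fragments from 23 to 39 and 20 to 24, and classes from 11 to 12 and 4 to 6. Higher bin pairs numbered 18 and 26 without the first and second A2 library and 16 and 31 without those of P2, lower ones 14, 15, 14 and 16, and higher fragments 23 without the second P2 library. edgeR and DESeq2 on whole reads were not run, the deposited values being kept as a signal, and sections split between *Hoxd11* and *Hoxd10* held the same fragments as those reported. Depth limits pairs near 0.00536 to 0.00790 in ESC libraries.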

Other observations

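The other 10 libraries of the series share the ESC design and are given for their values alone, with no test. Domain enrichment, 0.66 to 1.47 in limb libraries, was 1.52 and 1.78 in OS25 cells differentiated for 3 days with retinoic acid, 1.02 and 1.15 in Eed knockout ESCs and 1.47 to 2.68 in Ring1B knockout ESCs. In knockout cells given back Ring1B it was 3.18 and 3.33 with the wild-type protein (titled Ring1BGWT) and 3.52 with a mutant one (Ring1BG53). Flank separation, 1.38 to 1.75 in limb libraries, was 1.49 and 1.80 in the differentiated OS25 cells, 1.04 and 1.45 in Eed knockout ESCs, 0.50 to 1.16 in Ring1B knockout ESCs, 0.98 and 1.02 with wild-type and 1.02 with mutant Ring1B. The direction of *Hoxd4*–*Hoxd3* contacts, 1.30 to 1.79 in limb libraries, was 1.27 and 1.74 in the differentiated OS25 cells, 0.03 and 2.10 in Eed knockout ESCs, −0.35 to 1.09 in Ring1B knockout ESCs, −0.89 and 0.07 with wild-type and −0.35 with mutant Ring1B.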
